A study of Mus musculus with 192 samples.

Results

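The combination of LPS and cGAMP was compared with LPS alone and with cGAMP alone in dendritic cells derived from mouse bone marrow, which take up and present antigen. The comparison rests on 9 libraries, the 3 replicates of each of the groups LPS+cGAMP, LPS and cGAMP, out of 64 groups of 3 in the series, with 3 unstimulated libraries (Ctrl) as background. The cells came from female C57BL/6J mice aged 6 to 8 weeks, carried no stated mutation, were grown in GM-CSF at 15 ng/mL, plated at 100000 cells per well and exposed to ligand for 6 hours. LPS is lipopolysaccharide, the outer-membrane glycolipid of Gram-negative bacteria, and cGAMP is given in the labels as 3',3'-cGAMP, a cyclic dinucleotide of bacterial type. The labels state no dose of either ligand, so doses in the pair and the single ligands could not be compared. Ctrl shared the culture and lacked a named ligand. Total UMI counts (unique molecular identifiers, each meant to stand for 1 cDNA molecule) ranged from 124432 to 242927 in the pair, from 133379 to 229979 with LPS, from 107471 to 167311 with cGAMP and from 61823 to 89530 in Ctrl.

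LPS is sensed at the cell surface by TLR4 with the coreceptors CD14 and MD-2, which signals through the adaptor MyD88 to NF-kB and through the adaptor TRIF to the transcription factor IRF3. Cyclic dinucleotides are sensed inside the cell by STING, which activates the kinase TBK1 and with it IRF3, and also NF-kB. Both routes can therefore induce interferon beta, interferon-response genes, cytokines and chemokines in dendritic cells.

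Levels are given below as UMI counts scaled per library (counts-per-million, CPM), in the order of replicates 1, 2 and 3, or as mean ± SD with n = 3. Differences are log2 fold changes fitted by edgeR's quasi-likelihood test, with the standard error (SE) where shown and Benjamini-Hochberg adjusted p over the 4720 genes tested. A gene was called between groups at an adjusted p under 0.05 with a fold change of at least 2, which is 1 on the log2 scale. Nothing in the labels says that replicates came from separate animals or cultures, so the p-values measure the spread between these libraries, which may be technical. Marker genes of antigen-presenting cells were present at summed levels of 13650 to 14500 CPM in the pair, 13820 to 14090 with LPS, 14200 to 15170 with cGAMP and 17170 to 18440 in Ctrl. The list holds markers of dendritic cells and macrophages, and its sum does not tell them apart. Of the 12 markers, Lyz2 was the highest, at means of 6221, 6186, 7085 and 9450 CPM in the same order. Zbtb46, a transcription factor of conventional dendritic cells, was at 4.61 CPM in the pair, 5.00 with cGAMP and 0 with LPS and in Ctrl. The receptor gene Flt3 was at 6.73 CPM in the pair, 9.16 with LPS, 0 with cGAMP and 4.62 in Ctrl. Neutrophil markers summed to 823 to 943 CPM in the pair, 931 to 1184 with LPS, 583 to 899.8 with cGAMP and 672 to 928 in Ctrl. Their part in the results was not tested. Markers of mast cells, B cells, and T and NK cells did not exceed 23.4 CPM in sum. Plasmacytoid dendritic cell markers summed to 867 to 1103 CPM in the pair, 798 to 1236 with LPS, 713 to 816 with cGAMP and 137 to 182 in Ctrl, mostly from Bst2, which is also an interferon-response gene. Erythroid markers were at 0 in all 12 libraries. In these bulk libraries, fewer cells expressing a gene and less RNA of it per cell cannot be told apart.

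The pair differed less from LPS than from cGAMP. Against LPS, 148 of 4720 genes were called (3.14%), 111 higher (2.35%) and 37 lower (0.784%) in the pair. The 37 became 23 without LPS replicate 3 and 24 without pair replicate 3. Against cGAMP, 422 were called (8.94%), 270 higher (5.72%) and 152 lower (3.22%). The median absolute difference over all genes was 0.34 against LPS and 0.44 against cGAMP on the log2 scale. The interval of the difference lay within 2-fold of LPS for 1686 genes and within 2-fold of cGAMP for 1302. The balance of directions depended on scaling. With library totals in place of TMM factors, the median of all genes shifted by -0.11 against LPS and -0.17 against cGAMP. The splits then became 85 higher and 58 lower against LPS, and 198 higher and 245 lower against cGAMP. Relative to that shifted centre they were 93 and 47, and 234 and 204.

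**Figure D1:**
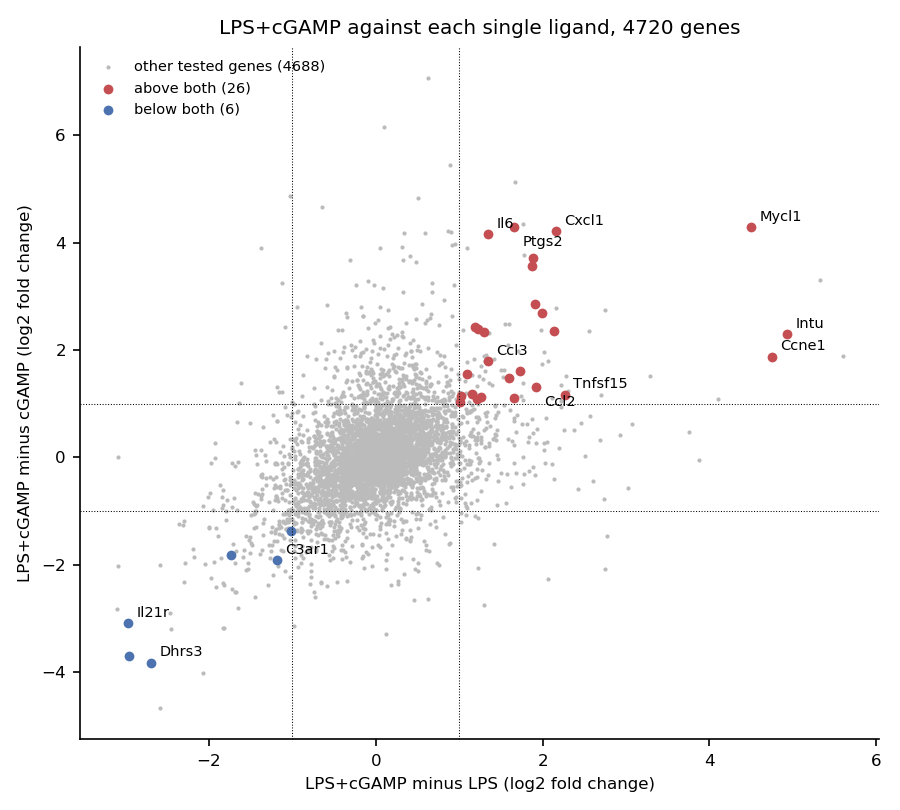
Each point is 1 of the 4720 tested genes, with the log2 fold change of LPS+cGAMP over LPS on the horizontal axis and over cGAMP on the vertical axis. The 26 genes above both single ligands lie in the upper right and the 6 below both in the lower left, and the cloud is wider along the vertical axis (422 genes called) than along the horizontal one (148).

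Above both single ligands, 26 genes passed (0.551% of those tested), with the pair at least 2-fold over each and the larger of both p-values significant after adjustment. They included the cytokines Il6, Il12b and Tnfsf15, the chemokines Ccl2, Ccl3, Cxcl1 and Cxcl2, the activin subunit gene Inhba, and Ptgs2, which encodes the inducible cyclooxygenase of prostaglandin synthesis. In all 26 genes the 3 pair libraries lay above the 6 single-ligand libraries, which 263 of all tested genes did (5.57%). The same contrast chose the genes, so nothing is read from that count. Against Ctrl, 25 of the 26 were called higher in the pair, as were 17.8% of all genes. Of these, 8 were also called higher with each single ligand, 7 with LPS only, 1 with cGAMP only and 9 with neither. Over all genes, 14.6% were called higher than Ctrl with LPS and 11.7% with cGAMP.

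Il6, an acute-phase and B-cell cytokine, was measured at 97.0, 99.8 and 182 CPM in Ctrl, 1370, 1086 and 1342 with LPS, 147, 164 and 221 with cGAMP and 3501, 3203 and 2974 in the pair. All pair libraries lay above all others, while the cGAMP libraries overlapped with or lay just above Ctrl. The pair exceeded LPS by 1.35 (SE 0.14) and cGAMP by 4.15 (SE 0.19) on the log2 scale, with an edgeR adjusted p of 6.24e-15 for both comparisons jointly. Il12b, the p40 subunit shared by IL-12 and IL-23, was lower throughout, at 74.4, 44.3 and 62.6 CPM with LPS, 18.3, 17.5 and 18.4 with cGAMP and 315, 208 and 172 in the pair. The pair libraries did not overlap with either single ligand, with differences of 1.88 over LPS (SE 0.47) and 3.56 over cGAMP and an edgeR adjusted p of 0.00851. The Il12b call was lost with DESeq2 and without pair replicate 1 or LPS replicate 2 or 3 (adjusted p up to 0.107).

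Cxcl1 and Cxcl2, neighbouring chemokine genes that attract neutrophils, rose over both. Cxcl1 was at 41.5, 24.9 and 106 CPM in Ctrl, 112, 128 and 129.8 with LPS, 27.5, 29.2 and 30.7 with cGAMP and 691, 616 and 419.7 in the pair. The pair exceeded every LPS library, and the cGAMP libraries lay within the range of Ctrl. The difference was 2.16 over LPS (SE 0.27) and 4.22 over cGAMP (SE 0.39), with an edgeR adjusted p of 1.63e-10. Cxcl2 was at 416, 549 and 413 CPM in Ctrl, 1258, 1203 and 1056 with LPS, 486, 462 and 522 with cGAMP and 2792, 2941 and 2266 in the pair. Again cGAMP alone stayed near Ctrl and the pair did not overlap with LPS, with an excess of 1.18 (SE 0.18, edgeR adjusted p = 1.78e-07).

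A second pattern was seen in genes that each ligand raised alone. Ccl3, a ligand of CCR1, was at 568, 674 and 509 CPM in Ctrl, 3461, 3165 and 3490 with LPS, 2751, 2542 and 2160 with cGAMP and 8113, 8759 and 8747 in the pair. Every stimulated library lay above every Ctrl library, and the pair libraries lay above all of them. The excess was 1.34 over LPS (SE 0.14) and 1.79 over cGAMP (SE 0.15), with an edgeR adjusted p of 3.73e-14. Ccl2, which attracts monocytes, was at 27.7, 24.9 and 28.8 CPM in Ctrl, 194, 194 and 237 with LPS, 339, 304 and 325 with cGAMP and 735, 906 and 754 in the pair. Here cGAMP was the higher single ligand without overlap, and the pair exceeded it by 1.31 (SE 0.22, edgeR adjusted p = 6.81e-06). Tnfsf15, a TNF-family cytokine, was at 55.4, 37.4 and 57.6 CPM in Ctrl, 394, 432 and 362 with LPS, 789, 795 and 945 with cGAMP and 1777, 1986 and 1927 in the pair. The order of the groups was that of Ccl2, with the pair 1.17 over cGAMP and 2.26 over LPS (edgeR adjusted p = 7.66e-06). Members of the Ccl and Cxcl families have similar sequences, and the handling of reads that match several genes is not stated.

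Ptgs2 was at 13.8, 24.9 and 19.2 CPM in Ctrl, 223, 233 and 295 with LPS, 36.7, 46.7 and 36.8 with cGAMP and 805, 809.5 and 799 in the pair. The 3 pair libraries were close to each other and the lowest was over 2-fold above the highest LPS library, with an excess of 1.66 over LPS (SE 0.21, edgeR adjusted p = 2.81e-10). Inhba was at 126, 199.5 and 174 CPM with LPS, 64.2, 58.4 and 24.6 with cGAMP and 691, 726 and 510.0 in the pair. The difference was 1.89 over LPS and 3.71 over cGAMP (edgeR adjusted p = 1.86e-09), and the pair libraries overlapped with no other group.

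Promoter sequences of genes the results turn on are shown because matches to the motifs of NF-kB or of interferon-response factors can be read in them. They cover the 250 bases before the annotated start (RefSeq, GRCm38.p6), 5′ to 3′ on the strand of the gene, with matches to the kappa-B motif or to the interferon-stimulated response element (GAAA, any 2 bases, GAAA) in capitals, searched on both strands. Those of Cxcl1 (chr5:90890995-90891244, plus strand), Cxcl2 (chr5:90903649-90903898, plus strand), Il6 (chr5:30012864-30013113, plus strand) and Sdc4 (chr2:164443189-164443438, minus strand) are of genes above both and were chosen because they hold a kappa-B match, which most promoters of these genes do not. In Cxcl1 and Cxcl2 a pair of overlapping kappa-B matches begins 71 and 97 bases before the start, in Il6 the match begins 44 and in Sdc4 82 bases before it. Ifnb1 (chr4:88522795-88523044, minus strand, kappa-B match 116 bases before the start) is of a gene at the cGAMP level. Ifit1 (chr19:34640639-34640888, plus strand, response elements 104 and 85 bases before the start) is of a gene not called between any of the 3 treatments.
Cxcl1: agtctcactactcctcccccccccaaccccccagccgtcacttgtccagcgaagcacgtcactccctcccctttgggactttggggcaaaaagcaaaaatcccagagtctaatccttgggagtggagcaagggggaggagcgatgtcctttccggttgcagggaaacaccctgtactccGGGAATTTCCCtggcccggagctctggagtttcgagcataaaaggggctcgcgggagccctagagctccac
Cxcl2: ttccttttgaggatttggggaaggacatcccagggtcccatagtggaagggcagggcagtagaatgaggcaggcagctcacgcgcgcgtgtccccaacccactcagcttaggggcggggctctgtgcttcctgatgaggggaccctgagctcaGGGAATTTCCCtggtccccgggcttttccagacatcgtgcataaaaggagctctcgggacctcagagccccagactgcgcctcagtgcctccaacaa
Il6: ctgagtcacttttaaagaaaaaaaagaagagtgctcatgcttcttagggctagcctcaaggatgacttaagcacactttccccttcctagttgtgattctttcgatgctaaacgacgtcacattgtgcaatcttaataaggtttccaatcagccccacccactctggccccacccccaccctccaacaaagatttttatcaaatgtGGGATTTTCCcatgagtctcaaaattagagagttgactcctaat
Sdc4: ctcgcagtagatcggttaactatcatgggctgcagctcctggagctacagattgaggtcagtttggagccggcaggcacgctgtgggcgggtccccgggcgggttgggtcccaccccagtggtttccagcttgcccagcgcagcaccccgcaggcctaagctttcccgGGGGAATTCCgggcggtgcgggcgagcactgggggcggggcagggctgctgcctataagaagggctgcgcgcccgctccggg
Ifnb1: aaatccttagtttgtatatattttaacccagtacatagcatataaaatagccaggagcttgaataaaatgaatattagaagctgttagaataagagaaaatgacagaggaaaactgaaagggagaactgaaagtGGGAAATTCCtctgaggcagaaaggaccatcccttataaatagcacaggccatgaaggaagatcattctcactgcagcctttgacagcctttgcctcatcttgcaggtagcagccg
Ifit1: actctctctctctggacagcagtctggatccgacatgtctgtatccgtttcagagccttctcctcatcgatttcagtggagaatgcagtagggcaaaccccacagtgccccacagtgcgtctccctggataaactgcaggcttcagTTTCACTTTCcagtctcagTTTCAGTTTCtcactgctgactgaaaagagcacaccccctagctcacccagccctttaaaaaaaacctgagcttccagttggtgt

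Matches were counted over windows of 300 bases, from 250 before to 50 after the start, in the 3614 tested genes with a promoter in the table. The kappa-B motif was found in 6.7% of them and the response element in 5.09%. A gene with several listed starts counted if any of them held a match. Of the 26 genes above both, 20 had a promoter, and 6 of these held a kappa-B match (30.0%), in Ccrl2, Cxcl1, Cxcl2, Il6, Nus1 and Sdc4, while none held a response element. Ccrl2 held its match at only some of its listed starts. The neighbouring genes Cxcl1 and Cxcl2 held the same matched letters, so they are not separate cases in full. Among 346 genes called higher than the shared Ctrl libraries with LPS and with cGAMP, and not called between any of pair, LPS and cGAMP, 272 had a promoter. A response element was found in 54 of these (19.9%) and a kappa-B match in 25 (9.19%). A kappa-B match was found in 13 of 119 promoters at the LPS level and higher with LPS (10.9%), 8 of 57 at the LPS level and higher with cGAMP (14%), 2 of 24 at the cGAMP level and higher with cGAMP (8.33%), 2 of 5 at the cGAMP level and higher with LPS (40.0%), and in none of the 6 below both. The match in Ifnb1 is thus 1 of 2 in its class, whose share is near that over all genes. These shares are descriptions without a test, and a match in letters does not show that a factor binds there. Sites that depart from the searched letters are not counted.

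Some genes above both were close to 0 in at least 1 single ligand. Mycl1, which encodes the transcription factor L-Myc, was at 0, 0 and 0 CPM in Ctrl, 0, 0 and 4.47 with LPS, 0, 0 and 6.14 with cGAMP and 70.0, 83.0 and 31.6 in the pair. Over the groups, 27 UMIs in the pair stood against 1 with LPS and 1 with cGAMP, a ratio of 30.3 over LPS (95% interval from counting error alone 4.99 to 1240) and 24.9 over cGAMP (4.11 to 1020), with an edgeR adjusted p of 0.0041. Every pair library held the transcript above the level of any other library. Intu, which encodes a protein of ciliogenesis, was at 0, 11.1 and 0 CPM with LPS, 27.5, 29.2 and 24.6 with cGAMP and 122, 111 and 162 in the pair, 66 UMIs against 2 for LPS (ratio 37.0, interval 9.84 to 312) and 2.29 above cGAMP (SE 0.46, edgeR adjusted p = 2.77e-04). Ccne1, encoding the S-phase cyclin E1, was at 7.44, 0 and 8.95 CPM with LPS, 91.7, 46.7 and 12.3 with cGAMP and 192.5, 194 and 135 in the pair, 80 UMIs against 3 for LPS (ratio 29.9, interval 9.86 to 148). The 3 cGAMP libraries of Ccne1 were widely spread, and the pair exceeded them by 1.87 (SE 0.45, edgeR adjusted p = 0.00463). The call was lost with DESeq2 for Mycl1 and Ccne1, without cGAMP replicate 2 for Mycl1 (adjusted p up to 0.0741), and with thinning or without cGAMP replicate 3 for Ccne1 (up to 0.21).

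Among regulators and enzymes, Src, a tyrosine kinase gene, was at 44.7, 61.0 and 80.5 CPM with LPS, 64.2, 46.7 and 98.2 with cGAMP and 184, 228 and 180.5 in the pair, with no overlap and an excess of 1.48 over cGAMP (edgeR adjusted p = 0.00107), a call lost with thinning and without cGAMP replicate 2 (adjusted p up to 0.151). Kdm6b, which encodes a demethylase of histone H3 lysine 27, was at 22.3, 22.2 and 22.4 CPM with LPS, 0, 5.84 and 24.6 with cGAMP and 87.5, 111 and 67.7 in the pair, so the single ligands did not exceed Ctrl at 27.7, 12.5 and 28.8 and the pair did (edgeR adjusted p over both singles = 0.0246). The Kdm6b call was lost under 8 of 17 alternatives, among them DESeq2, library totals and leaving out any LPS library or pair replicate 1 or 2 (adjusted p up to 0.38). The uncharacterised G530011O06Rik was at 119, 99.8 and 107 CPM with LPS, 91.7, 93.5 and 159.6 with cGAMP and 315, 394 and 361 in the pair, an excess of 1.61 over cGAMP, and AW011738 at 18.2 CPM with LPS, 15.9 with cGAMP and 131, 55.4 and 76.7 in the pair, a call lost under 5 alternatives, DESeq2 and leaving out pair replicate 1, LPS replicate 2 or cGAMP replicate 3 among them.

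The remaining genes above both are named to complete the count, after their values were seen. Sdc4, a cell-surface heparan sulfate proteoglycan, was at 1154, 1230 and 1002 CPM with LPS, 834, 672 and 964 with cGAMP and 2241, 2512 and 2442 in the pair (edgeR adjusted p = 5.52e-05). Ccrl2, an atypical chemerin-binding receptor, was at 692, 693 and 819 CPM with LPS, 761, 789 and 853 with cGAMP and 1680, 1667 and 1783 in the pair (edgeR adjusted p = 1.95e-08). In Ccrl2 the single ligands overlapped and the pair lay above both by similar amounts, while in Sdc4 LPS lay above cGAMP without overlap and the pair above both. Upp1, a uridine phosphorylase gene, was at 0 in Ctrl, 96.8, 183 and 166 CPM with LPS, 183, 117 and 166 with cGAMP and 324, 201 and 384 in the pair. Mean levels with LPS, cGAMP and the pair were 152, 80.4 and 382 CPM for the protease gene Htra4, 138, 57.3 and 323 for the adhesion gene Clmp, and 263, 267 and 609.8 for the filopodial myosin gene Myo10. They were 74.5, 113 and 235 CPM for the arrestin-domain gene Arrdc4, 72.6, 81.3 and 178 for the splicing factor gene Syf2, and 93.3, 85.9 and 194 for Nus1. Nus1 was the only one of the 26 not called higher than Ctrl in the pair, and its Ctrl libraries were at 83.1, 212 and 86.4 CPM. Nus1, Syf2 and Upp1 were each lost under 10 of 17 alternatives, DESeq2, library totals and leaving out pair replicate 1, LPS replicate 1 or cGAMP replicate 3 among them (adjusted p up to 0.341, 0.31 and 0.539), Arrdc4 under 5, leaving out pair replicate 2 or cGAMP replicate 2 or 3 among them, and Myo10 under 2, with library totals and without LPS replicate 1.

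Just inside the 2-fold threshold were Upp1, with an excess of 1.01, and Nus1, with 1.02. Just outside it were Tnfaip3 (0.99), which encodes the NF-kB feedback inhibitor A20, Kynu (0.99), an enzyme gene of tryptophan breakdown, Il1a (0.94) and Tnf (0.90). Tnf, the gene of tumour necrosis factor, was at 637, 1135 and 797 CPM in Ctrl, 4437, 4373 and 4506 with LPS, 3796, 3447 and 3363 with cGAMP and 7737, 8835 and 8277 in the pair. Its pair libraries lay above all single-ligand libraries, as did those of Tnfaip3 at 1103, 1453 and 1178 CPM, against 566, 693 and 608 with LPS and 495, 567 and 614 with cGAMP. The count of 26 fell to 16 with library totals in place of TMM factors and to 16 with DESeq2, and all of these were among the 26.

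Below both single ligands, 6 genes were called (0.127%). Il21r, the receptor gene of interleukin 21, was at 55.4, 49.9 and 76.8 CPM in Ctrl, 59.5, 49.9 and 53.7 with LPS, 82.5, 40.9 and 61.4 with cGAMP and 0, 13.8 and 4.51 in the pair. The single ligands overlapped with Ctrl and the pair lay below all of them. Counts were 3 UMIs in the pair against 29 with LPS (ratio of LPS to the pair 8.63, counting interval 2.67 to 44.3) and 26 with cGAMP (9.39, 2.88 to 48.5), with an edgeR adjusted p of 0.00732. Dhrs3, a retinal reductase gene, was at 319, 349 and 489.7 CPM in Ctrl, 44.7, 38.8 and 49.2 with LPS, 82.5, 152 and 55.2 with cGAMP and 8.75, 6.92 and 4.51 in the pair. Each ligand alone had lowered it and the pair was lower again, at 3 UMIs, with LPS 7.14 times (2.17 to 37.0) and cGAMP 15.9 times (5.10 to 80.0) as high (edgeR adjusted p = 0.0355). The Dhrs3 call was lost under 8 of 17 alternatives, which were thinning, DESeq2 and leaving out any pair or any LPS library (adjusted p up to 0.316). Ptpro, a receptor tyrosine phosphatase gene, was at 0, 24.9 and 9.6 CPM in Ctrl, 52.1, 27.7 and 35.8 with LPS, 55.0, 64.3 and 67.5 with cGAMP and 0, 0 and 9.03 in the pair, which held 2 UMIs. LPS was 8.92 times (2.17 to 78.7) and cGAMP 15.2 times (3.83 to 131) as high (edgeR adjusted p = 0.0343). The call was lost under 7 alternatives for Ptpro (adjusted p up to 0.254), leaving out pair replicate 1 or 2 or LPS replicate 1 or 3 among them, and under 4 for Il21r (up to 0.131), leaving out pair replicate 1 or 3 among them.

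Tle3, a transcriptional corepressor gene, was at 13.8, 24.9 and 28.8 CPM in Ctrl, 96.8, 149.6 and 129.8 with LPS, 128, 140.2 and 135 with cGAMP and 70.0, 20.8 and 31.6 in the pair. It was called higher than Ctrl with each ligand alone and not in the pair, which lay -1.74 from LPS (SE 0.37) and -1.82 from cGAMP (edgeR adjusted p = 6.86e-04). The Tle3 call was lost when libraries were thinned to equal totals (edgeR adjusted p = 0.141). Myo1f, a leukocyte myosin gene, was at 706, 811 and 749 CPM in Ctrl, 290.3, 327 and 354 with LPS, 468, 368 and 436 with cGAMP and 201, 159 and 139.9 in the pair. Its groups formed 4 steps, from Ctrl over cGAMP and LPS to the pair, with only cGAMP replicate 2 near the LPS range (pair minus LPS -1.01, SE 0.24, edgeR adjusted p = 0.00539). C3ar1, the complement C3a receptor gene, was at 238, 188 and 170.0 CPM with LPS, 376, 356 and 246 with cGAMP and 52.5, 104 and 90.3 in the pair (edgeR adjusted p = 0.0109), against a wide 83.1, 274 and 278 in Ctrl. The call was lost without pair replicate 3 or LPS replicate 3 for Myo1f (adjusted p up to 0.143 over its alternatives) and without pair replicate 1 or 3 or LPS replicate 1 for C3ar1 (up to 0.113). In all 6 genes the pair libraries lay below the single-ligand libraries, as in 144 of all tested genes (3.05%), with the choice made on the same contrast. The count of 6 became 2 without pair replicate 3, 3 without LPS replicate 3, 1 when libraries were thinned to equal totals and 3 with DESeq2.

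**Figure D2:**
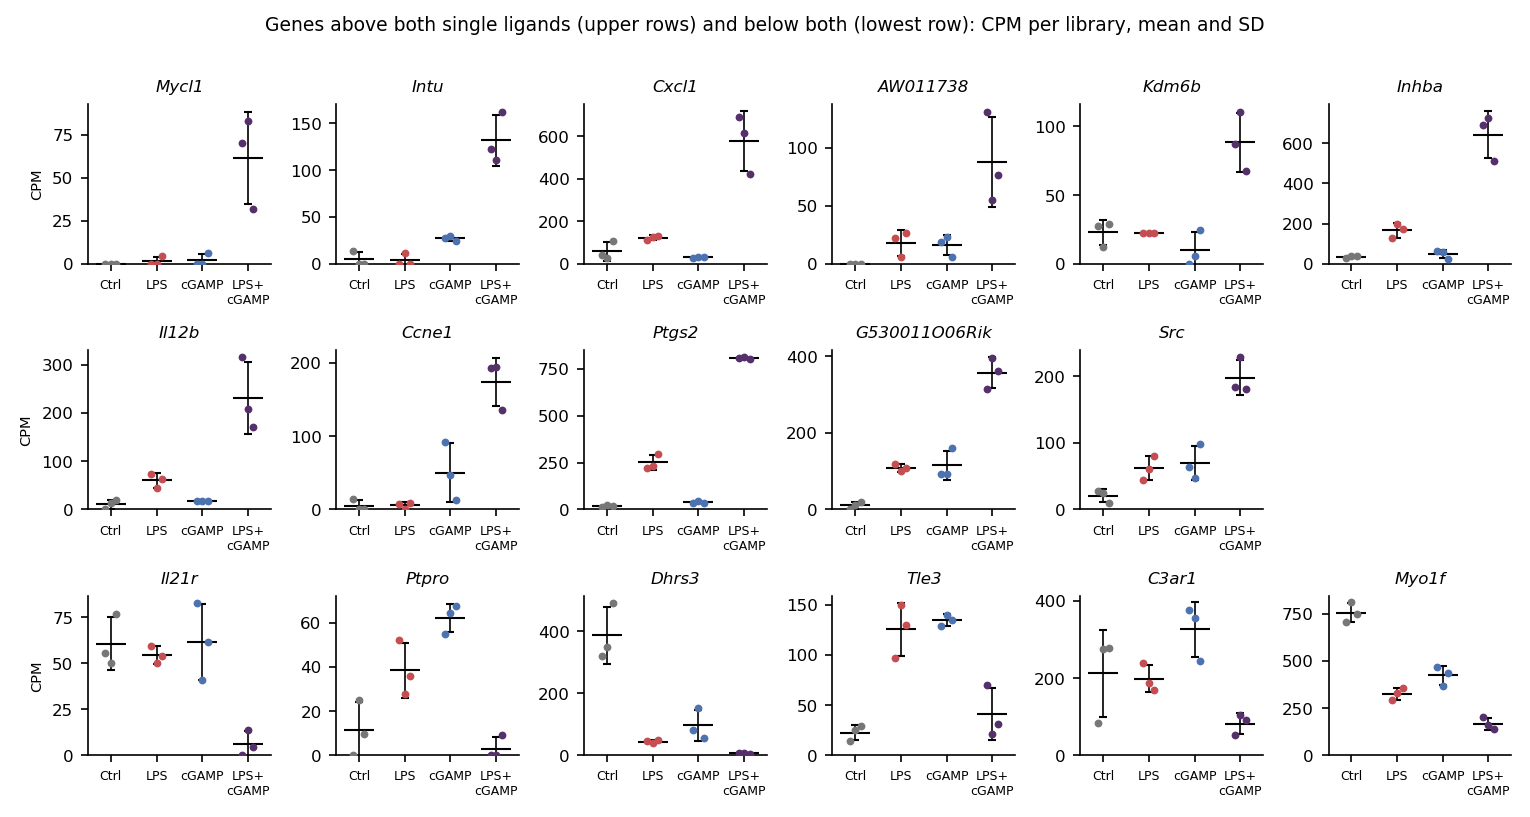
CPM in each of the 3 libraries (points) with their mean (line) and SD (bars) in Ctrl, LPS, cGAMP and LPS+cGAMP, for genes with a large excess above both single ligands and the 6 below both, each panel with its own linear axis from 0. In every panel the 3 pair libraries lie beyond the 6 single-ligand libraries, as for Ptgs2 with pair libraries from 798.8 to 809.5 CPM against 295 at most with LPS.

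Which ligand the pair resembled was read in the 415 genes called between LPS and cGAMP (8.79% of those tested), 242 higher with LPS (5.13%) and 173 higher with cGAMP (3.67%). A gene was put at the LPS level if the pair was called against cGAMP, in the direction of LPS, and not against LPS, and at the cGAMP level in the reverse case. At the LPS level were 227 genes (54.7% of the 415, 4.81% of all tested), and for 129 of these the interval of the difference lay within 2-fold of LPS. At the cGAMP level were 45 (10.8%, and 0.953% of all tested), 22 of them within 2-fold of cGAMP by the same measure. Another 3 lay between both ligands (0.0636% of all tested). Above both were 6 genes higher with LPS (0.127%) and 3 higher with cGAMP (0.0636%), and 131 genes could not be assigned (31.6%, and 2.78% of all tested). Missing a call does not show that the pair equals a ligand, which is why the interval counts are given. The count at the cGAMP level became 29 when libraries were thinned to equal totals.

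**Figure D3:**
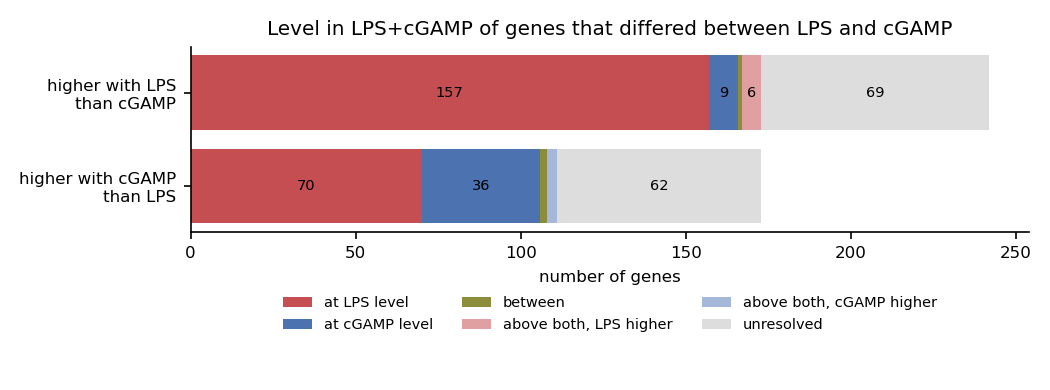
Number of genes called between LPS and cGAMP, split by which ligand gave the higher level (rows) and by the level in LPS+cGAMP (colours). Of 242 genes higher with LPS, 157 stood at the LPS level and 9 at the cGAMP level, and of 173 genes higher with cGAMP, 70 stood at the LPS level and 36 at the cGAMP level.

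Of the 242 genes higher with LPS than with cGAMP, 157 were at the LPS level in the pair, 117 of them within 2-fold. LPS had raised 123 of the 157 over Ctrl, and 102 of these were called with LPS and not with cGAMP. Against Ctrl, 24.2% of all genes were called with LPS, 17.6% with cGAMP and 29% with the pair, in either direction. Cav1, which encodes caveolin-1, was at 55.4, 49.9 and 28.8 CPM in Ctrl, 685, 903 and 622 with LPS, 73.4, 17.5 and 55.2 with cGAMP and 630.1, 602 and 555 in the pair. The pair libraries overlapped with LPS and lay far above cGAMP, with -0.31 against LPS (SE 0.16, interval -0.62 to -0.01) and 3.68 against cGAMP (edgeR adjusted p = 1.07e-28). Ccl17, a ligand of CCR4, was at 149, 128 and 143 CPM with LPS, 9.17, 11.7 and 6.14 with cGAMP and 105, 159 and 158 in the pair, again overlapping with LPS alone. Aldh1a2, the gene of a retinaldehyde dehydrogenase that forms retinoic acid, was at 59.5, 72.0 and 58.2 CPM with LPS, 0 in all 3 cGAMP libraries and 114, 83.0 and 99.3 in the pair. Taking the floor of 3 UMIs over the cGAMP group, the pair was at least 14.5-fold and LPS at least 9.33-fold higher than cGAMP. Lad1 was at 141, 128 and 94.0 CPM with LPS and 87.5, 69.2 and 72.2 in the pair, and Ppfia3 at 59.5, 44.3 and 71.6 with LPS and 87.5, 118 and 58.7 in the pair, each with 1 UMI over the 3 cGAMP libraries.

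Some members of the gene lists were in the same class and are given for their values, while others, such as Tnf, Il6, Ccl4 and Oasl1, were not. Il1b, the interleukin 1 beta gene, was at 3432, 3636 and 3477 CPM with LPS, 449, 309.7 and 307 with cGAMP and 4472, 4518 and 4288 in the pair, which gave 0.33 against LPS (SE 0.12, edgeR adjusted p = 0.0789) and 3.67 against cGAMP. All pair libraries of Il1b lay above all LPS libraries, by less than the threshold. Cd14, the LPS coreceptor gene, was at 346, 337 and 403 CPM in Ctrl, 1385, 1236 and 1253 with LPS, 220.1, 234 and 215 with cGAMP and 1322, 1370 and 1160 in the pair. The pair and LPS overlapped, with a difference of -0.01 (interval -0.29 to 0.26), and cGAMP lay below Ctrl. Cd40, a costimulatory receptor gene, was at 1489, 1591 and 1535 CPM with LPS, 550.2, 555 and 479 with cGAMP and 2206, 2117 and 1909 in the pair, and the scavenger receptor gene Marco at 1385, 1602 and 1383 with LPS, 312, 251 and 209 with cGAMP and 1041, 920.2 and 970.3 in the pair. Cd40 lay above LPS in all 3 pair libraries and Marco below it, both by less than 2-fold. Nfkb2, an NF-kB subunit gene, was at 405, 117 and 535 CPM on average with LPS, cGAMP and the pair, Ch25h, encoding cholesterol 25-hydroxylase, at 436, 133 and 345, and Il12a, the p35 subunit gene of IL-12, at 164, 17.9 and 228. Nos2, the inducible nitric oxide synthase gene, was at 14.9, 72.0 and 98.4 CPM with LPS, spread by LPS replicate 1, and at 131, 152 and 149 in the pair. Its excess over LPS was 1.09 (SE 0.37, edgeR adjusted p = 0.0595).

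Only 9 genes higher with LPS stood at the cGAMP level: Maf, Tsc22d1, Gpr84, Smpdl3b, Fyb, Cebpd, Hmox1, Sirpa and Zfp263. Maf, a transcription factor gene, was at 69.2, 49.9 and 76.8 CPM in Ctrl, 126, 199.5 and 237 with LPS, 27.5, 46.7 and 36.8 with cGAMP and 87.5, 41.5 and 58.7 in the pair. LPS was called above Ctrl and the pair was not, overlapping with Ctrl (-1.67 against LPS, SE 0.33, edgeR adjusted p = 7.74e-05). Gpr84, a receptor gene for medium-chain fatty acids, was at 13.8, 87.3 and 48.0 CPM in Ctrl, 581, 427 and 389 with LPS, 138, 117 and 123 with cGAMP and 158, 249 and 189.6 in the pair, all pair libraries lying below the LPS range (-1.19, SE 0.22). Fyb, a leukocyte adaptor gene, was at 283, 249 and 224 CPM with LPS, 110.0, 111 and 43.0 with cGAMP and 78.8, 48.4 and 94.8 in the pair, and Tsc22d1 at 134, 105 and 129.8 with LPS, 45.9, 17.5 and 36.8 with cGAMP and 61.3, 27.7 and 18.1 in the pair. In both the pair overlapped with cGAMP and not with LPS. The call against LPS was lost for Smpdl3b under 7 of 14 alternatives, which were thinning, DESeq2 and leaving out any LPS library or pair replicate 1 or 2 (adjusted p up to 0.268), and for Tsc22d1 with thinning and without pair replicate 3 (up to 0.199).

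Of the 173 genes higher with cGAMP than with LPS, 70 were at the LPS level and 36 at the cGAMP level in the pair, with 12 and 19 of these within 2-fold. Most of the former were genes that LPS had lowered: 50 of the 70 were called below Ctrl with LPS, against 9.6% of all genes with LPS, 5.91% with cGAMP and 11.1% with the pair. Pdxk, the pyridoxal kinase gene, was at 208, 187 and 288 CPM in Ctrl, 14.9, 33.2 and 8.95 with LPS, 128, 210.4 and 209 with cGAMP and 17.5, 48.4 and 22.6 in the pair. The cGAMP libraries lay in or near the Ctrl range and the pair overlapped with LPS (-2.65 against cGAMP, SE 0.42, edgeR adjusted p = 4.98e-08). Lpxn, encoding the adhesion protein leupaxin, was at 0, 16.6 and 8.95 CPM with LPS, 101, 81.8 and 110.5 with cGAMP and 17.5, 13.8 and 31.6 in the pair, and Tnfrsf26, a TNF receptor family gene, at 7.44, 5.54 and 8.95 with LPS, 91.7, 64.3 and 61.4 with cGAMP and 8.75, 20.8 and 4.51 in the pair.

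A further 11 of the 70 had been raised over Ctrl by cGAMP and were lower when LPS was added. They included Ccl12, Cd300lf, Cxcl9, Dnajc15, Fgl2, H2-K2, Hpse, Plau, Rab19 and Tmem37, a subset named after the values were seen. Tmem37 was at 27.7, 24.9 and 28.8 CPM in Ctrl, 14.9, 5.54 and 4.47 with LPS, 193, 199 and 104 with cGAMP and 26.3, 48.4 and 27.1 in the pair. Its cGAMP libraries stood above all others and the pair overlapped with Ctrl, -2.26 from cGAMP (SE 0.45, edgeR adjusted p = 2.69e-05). Rab19, a small GTPase gene, was at 73.4, 99.3 and 129 CPM with cGAMP and 17.5, 13.8 and 13.5 in the pair, with 3 UMIs over the LPS libraries. Cxcl9, a chemokine gene for CXCR3-bearing T cells, was at 119, 139 and 188 CPM with LPS, 422, 456 and 540.1 with cGAMP and 219, 132 and 271 in the pair, below every cGAMP library (-1.15, SE 0.23, edgeR adjusted p = 3.07e-05), and -0.92 without pair replicate 2, under the 2-fold threshold. Fgl2, encoding a fibrinogen-like protein, had means of 172, 474 and 193 CPM with LPS, cGAMP and the pair. H2-K2 and Ccl12 have close relatives, and reads may have been split among them.

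Genes at the cGAMP level were led by Ifnb1, the gene of interferon beta. It was at 13.8, 12.5 and 9.6 CPM in Ctrl, 0, 22.2 and 17.9 with LPS, 266, 210.4 and 110.5 with cGAMP and 96.3, 132 and 139.9 in the pair. LPS overlapped with Ctrl, and the pair overlapped with cGAMP. The pair exceeded LPS by 3.03 (SE 0.52, edgeR adjusted p = 1.81e-06) and stood at -0.58 against cGAMP (SE 0.31, interval -1.20 to 0.03, adjusted p = 0.242), so a reduction of more than 2-fold lies inside the interval. Of the other 6 interferon genes listed, none passed the filter on low counts. Oasl1, an interferon-response gene, was at 1072, 1241 and 1365 CPM with LPS, 3053, 2565 and 2651 with cGAMP and 3195, 3314 and 3006 in the pair, with the pair overlapping cGAMP and 1.36 over LPS (SE 0.18, edgeR adjusted p = 8.46e-10). Ccl4 had means of 4198 CPM with LPS, 9178 with cGAMP and 11420 in the pair, and Ccl7 of 35.1, 124 and 200.2.

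Others of this class were Meis3, Cdyl, Slc37a3 and Zfp36l2. Meis3, a homeobox gene, was at 7.44, 27.7 and 8.95 CPM with LPS, 119, 128 and 129 with cGAMP and 87.5, 76.1 and 85.8 in the pair, and Cdyl, a chromodomain gene, at 14.9, 5.54 and 17.9 with LPS, 27.5, 64.3 and 123 with cGAMP and 96.3, 62.3 and 76.7 in the pair. Slc37a3, a solute carrier gene, was at 82.5, 70.1 and 61.4 CPM with cGAMP and 35.0, 20.8 and 58.7 in the pair, with 3 UMIs over the LPS libraries. Zfp36l2, encoding an RNA-binding protein of mRNA decay, was lowered by LPS from 291, 274 and 336 to 37.2, 55.4 and 67.1 CPM, and stood at 293, 316 and 252 with cGAMP and 219, 118 and 139.9 in the pair. All of its pair libraries lay between the groups, 1.46 above LPS and -0.90 from cGAMP, the latter under the 2-fold threshold. The call against LPS was lost for Slc37a3 under 4 of 13 alternatives, DESeq2 and leaving out pair replicate 3 or LPS replicate 1 or 2 (adjusted p up to 0.326), and for Cdyl (0.176) and Zfp36l2 (0.0672) with thinning. The difference of Zfp36l2 from cGAMP was called under 4 of 14 alternatives.

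The 3 genes called away from both ligands and between them were Mgll, encoding monoacylglycerol lipase, Rgcc, a cell-cycle regulator gene, and Sla, a signalling adaptor gene. Rgcc had means of 23.9 CPM in Ctrl, 21.1 with LPS, 389.8 with cGAMP and 144 in the pair. Mgll had 256, 94.6, 488 and 232 CPM and Sla 81.0, 161, 12.1 and 78.9 CPM in the same order. In Mgll and Sla the pair was near the level of Ctrl.

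**Figure D4:**
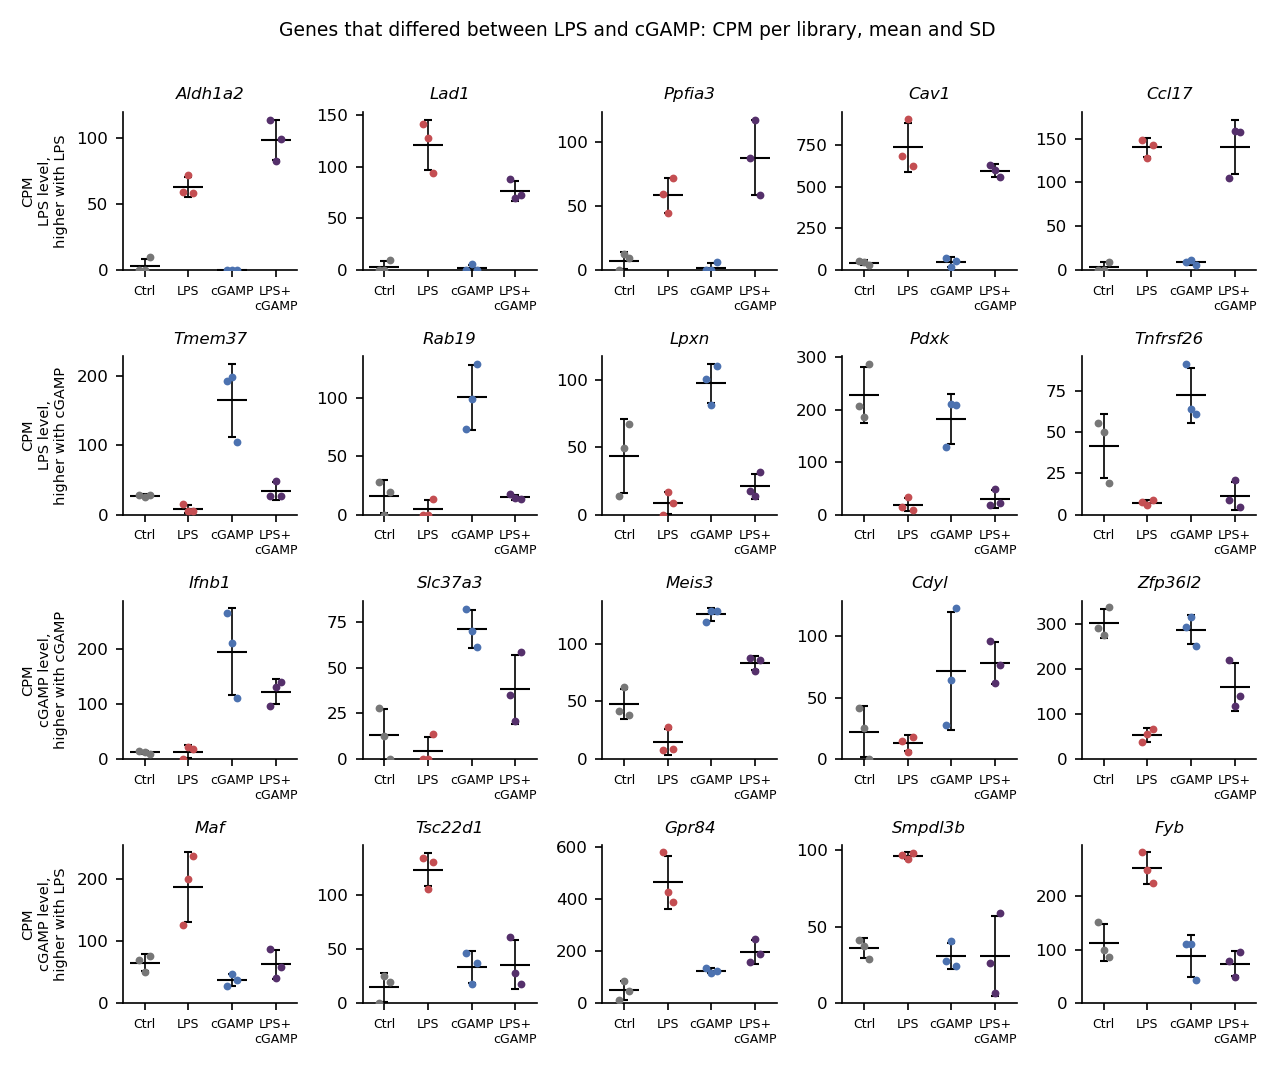
CPM in each of the 3 libraries (points) with the mean (line) and SD (bars) in Ctrl, LPS, cGAMP and LPS+cGAMP, for genes at the LPS level or at the cGAMP level in the pair, each panel with its own linear axis from 0. The pair libraries of Cav1 sit with LPS (555 to 630.1 CPM) and those of Ifnb1 with cGAMP (96.3 to 139.9 CPM).

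The gene lists are given as counts of called members, to be read beside the shares called over all genes: 2.35% higher and 0.784% lower in the pair than with LPS, and 5.72% higher and 3.22% lower than with cGAMP. No list was tested against another or against all genes. Of 37 interferon-response genes, 36 were tested, and all 36 were called higher than Ctrl in the pair, as were 17.8% of all genes. Against LPS, 1 was higher in the pair (Oasl1) and none lower, which is near the share over all genes, and against cGAMP none was called, with medians of 0.18 and 0.16 beside 0.02 and 0.01 over all genes. Ifit1, which binds foreign RNA, was at a mean of 218 CPM in Ctrl, 3528, 3935 and 3991 with LPS, 5071, 5440 and 5825 with cGAMP and 5514, 5819 and 5768 in the pair. LPS was the lowest treatment without overlap (0.58, SE 0.13, edgeR adjusted p = 0.00121, under 2-fold), and the difference to cGAMP was 0.07 (interval -0.19 to 0.32). Cxcl10, an interferon-induced chemokine gene, was at 6774, 7493 and 7647 CPM with LPS, 10900, 11030 and 11370 with cGAMP and 11060, 11710 and 11680 in the pair, in the same order as Ifit1. Irf7, the interferon regulatory factor gene, was at 1563, 1574 and 1642 CPM with LPS, 1458, 1560 and 1356 with cGAMP and 1663, 1529 and 1697 in the pair, the pair overlapping with each single ligand.

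Of 22 inflammatory cytokines, 17 were tested, 4 were called higher in the pair than with LPS and 12 higher than with cGAMP, none lower, and 3 were above both (Il6, Il12b and Tnfsf15). Their medians were 0.75 against LPS and 1.42 against cGAMP. Il27, encoding a subunit of interleukin 27, was at 14.9, 16.6 and 4.47 CPM with LPS, 36.7, 23.4 and 43.0 with cGAMP and 52.5, 90.0 and 81.2 in the pair, 2.70 over LPS (SE 0.61, edgeR adjusted p = 6.81e-04) and 1.16 over cGAMP (SE 0.50, adjusted p = 0.112). Its pair libraries lay above all others, with the second comparison past the threshold in size and not in its p. Il10, the gene of an anti-inflammatory cytokine, held 12 UMIs in the pair, 4 with LPS and 0 with cGAMP and in Ctrl, so the pair was at least 3.69-fold above cGAMP. Of 20 genes in the chemokine list, 19 were tested. In the pair, 7 were called higher than with LPS, 10 higher and 3 lower than with cGAMP, and 5 above both. Each of the 3 counts of higher genes includes the receptor gene Ccrl2, and the chemokines above both were Ccl2, Ccl3, Cxcl1 and Cxcl2. The list had medians of 0.65 and 1.10. Ccl5 was at 2225 CPM in Ctrl, 27030 with LPS, 13070 with cGAMP and 33830 in the pair on average. Ccl22, a CCR4 ligand gene, was at 1045, 179 and 1068 CPM with LPS, cGAMP and the pair, and Cxcl16 at 866, 267 and 836, so that in both the pair lay beside LPS.

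All 23 NF-kB subunit and feedback genes were tested. None was called against LPS, near the 3.14% of all genes called there, and 10 were higher in the pair than with cGAMP, beside 5.72% of all genes. The medians were 0.22 and 0.86. Nfkbib, an inhibitor gene of the family, was at 119, 133 and 143 CPM with LPS, 64.2, 64.3 and 104 with cGAMP and 263, 179.9 and 293 in the pair, above every single-ligand library. Socs1, a cytokine feedback inhibitor gene, went the other way at 186, 205 and 237 CPM with LPS, 220.1, 234 and 264 with cGAMP and 131, 159 and 131 in the pair, with no overlap and no call (-0.60 against LPS, -0.78 against cGAMP). Of 11 tested genes of the TLR4 complex and its adaptors, Ticam2, a TRIF-bridging adaptor gene, was called lower in the pair than with LPS, on 3 UMIs against 19 (LPS 5.65 times the pair, 1.66 to 29.8), and Cd14 higher than with cGAMP. The Ticam2 call was lost under 7 of 13 alternatives: no filter on low counts, DESeq2, and leaving out any pair library or LPS replicate 1 or 3 (adjusted p 0.0267 to 0.224 over the 13). Of 9 tested STING pathway genes, Rnf5, encoding a ubiquitin ligase, was called lower in the pair than with cGAMP (17.5, 6.92 and 4.51 against 36.7, 46.7 and 55.2 CPM), and no other was called. Their medians were -0.11 and 0.01 for the TLR4 genes and -0.39 and -0.06 for the STING genes.

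For maturation and costimulation, 12 of 18 genes were tested. None was called against LPS, and 4 were higher and 2 lower in the pair than with cGAMP. Cd86, a costimulatory ligand gene, was at 335, 249 and 237 CPM with LPS, 431, 397 and 380.5 with cGAMP and 446, 374 and 393 in the pair, and the lymph-node homing receptor gene Ccr7 at 432, 410.1 and 501 with LPS, 266, 368 and 362 with cGAMP and 569, 616 and 623 in the pair. The pair overlapped with cGAMP in Cd86 and lay above both ligands, by less than 2-fold, in Ccr7. Slamf7 had 424, 565 and 564 CPM with LPS, 202, 316 and 325 with cGAMP and 893, 789 and 776 in the pair, above every single-ligand library and under 2-fold over LPS. No gene was called in the pair against either ligand among 15 tested MHC class I genes, with Tap1, a peptide transporter gene, at 638, 498 and 661 CPM with LPS, cGAMP and the pair, or among 9 tested MHC class II genes. With 3.14% and 8.94% of all genes called against LPS and cGAMP, lists of this size would hold few or no calls at those shares. Of 22 tested immunometabolism genes, 4 were higher and 1 lower than with LPS and 7 higher than with cGAMP, with Ptgs2 and Upp1 above both. Of 7 tested cell-cycle genes, Ccne1 was above both, and Pcna, the replication clamp gene, was at 223, 272 and 255 CPM with LPS, 789, 800.5 and 994 with cGAMP and 525, 498 and 510.0 in the pair, between both ligands without overlap. Among lipid and sterol genes (16 tested), cell death genes (19) and resting-state surface genes (19), the pair differed from LPS in 0, 0 and 1, near the 3.14% over all genes, and from cGAMP in 3, 2 and 5, beside 8.94%.

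On the log2 scale, the pair can also be set against the sum of both single effects over Ctrl. The departure from that sum passed an edgeR adjusted p of 0.05 in 555 genes (11.8%), 128 positive (2.71%) and 427 negative (9.05%). Of the 26 genes above both, 3 departed upward (Cxcl1, Cxcl2 and Nus1) and 4 downward (Ccl3, Ccrl2, Tnfsf15 and Upp1). For Cxcl1 the departure was 3.22 (SE 0.78), for Cxcl2 1.09 (SE 0.33), and for Ccl3 -0.75 (SE 0.24). Ccl3 was thus above each ligand and below the sum of their log2 effects. A sum on the log2 scale is a product of fold changes, so a downward departure does not mean less than the sum in CPM. For Il6 it was 0.90 (SE 0.37, edgeR adjusted p = 0.107), and for the interferon-response gene Ifit1, not called between any of the 3 treatments, -4.08 (SE 0.25).

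The comparison could be repeated in libraries that share none of the 12 above. Where the ligand named HMW was added to all 3 groups, 22 genes were above both LPS+HMW and HMW+cGAMP in the triplet (0.466%) and 9 below both (0.191%). Against LPS alone, 0 genes were called in LPS+HMW, and against cGAMP alone 0 in HMW+cGAMP. By calls, these comparison groups were thus not told apart from the single ligands. The 22 became 11 when libraries were thinned to equal totals, with fewer genes tested. Of the 26 genes above both in the pair, 11 were called again: Ccl2, Ccl3, Cxcl1, Htra4, Il6, Il12b, Inhba, Intu, Mycl1, Ptgs2 and Tnfsf15. All 26 were higher than both comparison groups there, which 33% of all tested genes were. The same was so for 25 of the 26 with SeV (31.9% of all genes), 22 with Zymosan (29.9%), 17 with PAM (29.6%) and 16 with CpGB (31.5%), with no test. Il6 was at 1437 ± 33.3 CPM with LPS+HMW, 196 ± 6.88 with HMW+cGAMP and 3502 ± 405 with all 3, giving 1.28 and 4.15. Cxcl1 was at 174 ± 18.2, 38.4 ± 13.9 and 679.9 ± 87.0 CPM, and Mycl1 at 1.7 ± 2.95, 8.64 ± 7.49 and 68.7 ± 16.2 CPM, so both again stood far above the comparison groups. Tnf, just outside the threshold in the pair, was at 4517 ± 179, 3635 ± 262 and 9213 ± 555 CPM and was called above both (1.03 and 1.34, edgeR adjusted p = 1.51e-07). Of the 6 genes below both, Myo1f was called again and all 6 were lower than both groups, as were 31.2% of all genes. Over the 26, the median excess was 1.34 in the pair, by which they were chosen, and 0.92 with HMW, and over the 6 it was -2.22 and -0.93.

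Against LPS alone, 5 genes were called in LPS+SeV, and against cGAMP alone 1 in SeV+cGAMP. With SeV in all groups, 14 genes were above both (0.297%) and 14 below both (0.297%). They held 11 of the 26 (Ccl2, Clmp, Cxcl1, Cxcl2, Htra4, Il12b, Inhba, Intu, Mycl1, Ptgs2 and Tnfsf15) and 3 of the 6 (C3ar1, Myo1f and Ptpro). Across HMW and SeV, 9 of the 26 were called in both and 13 in at least 1. The other ligands gave fewer calls, and more genes were called when they joined a single ligand. Against LPS alone, 83 genes were called with PAM added, 129 with Zymosan and 69 with CpGB. Against cGAMP alone, the numbers were 419, 185 and 337. With PAM 2 genes were above both (0.0424%), G530011O06Rik and Il12b, both of them among the 26. With Zymosan, described in the labels as depleted, 4 were (0.0847%), of which Cxcl1 was among the 26, and with CpGB 4 (0.0847%), of which G530011O06Rik and Inhba were. With PAM present, Il6 was at 4109 ± 261 CPM with PAM+LPS, 5896 ± 254 with PAM+cGAMP and 5318 ± 271 with all 3, the last lying between the others. Ifnb1, at the cGAMP level in the pair, was at 186 ± 64.2 CPM with LPS+CpGB, 409 ± 66.7 with cGAMP+CpGB and 884 ± 164 with all 3, above both (2.22 and 1.13, edgeR adjusted p = 9.66e-04). With HMW it stayed beside cGAMP, at 16.8 ± 6.62 CPM with LPS+HMW, 172 ± 31.0 with HMW+cGAMP and 152 ± 18.9 with all 3. In all, 12 of the 26 were called above both with none of the 5 added ligands.

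**Figure D5:**
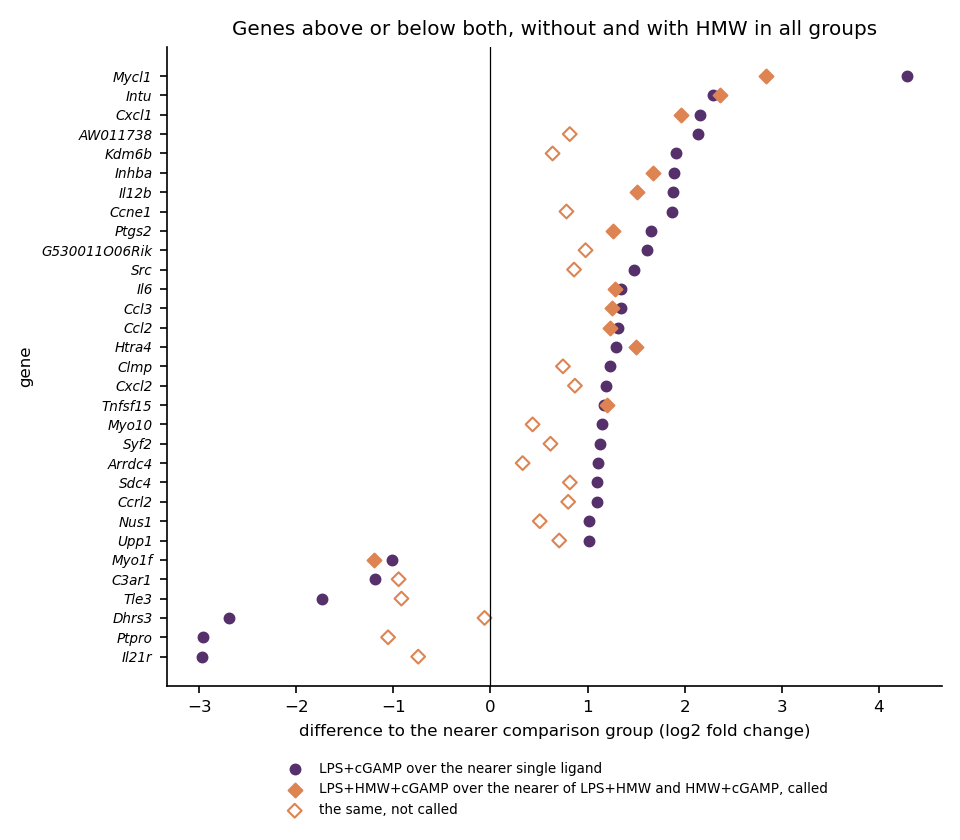
Log2 difference to the nearer comparison group for genes above or below both single ligands, in LPS+cGAMP against LPS and cGAMP and in LPS+HMW+cGAMP against LPS+HMW and HMW+cGAMP, which use separate libraries (diamonds, filled where called again). The genes above both lie to the right of 0 in both backgrounds and the 6 below both to the left, with medians over the 26 and the 6 of 1.34 and 0.92, and of -2.22 and -0.93.

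The level reached by the triplet could be read in the same way. With HMW, 162 of the 242 genes higher with LPS than cGAMP were called in that direction again, 112 of them at the level of LPS+HMW and 7 at that of HMW+cGAMP. Of the 173 higher with cGAMP, 100 were called again, 49 at the level of LPS+HMW and 25 at that of HMW+cGAMP. With SeV the counts were 141 called again with 106 and 3, and 83 with 48 and 14. With Zymosan they were 87 with 49 and 4, and 53 with 15 and 12. With PAM, 32 and 32 genes were called again, 8 and 1 at the level of PAM+LPS and 9 and 19 at that of PAM+cGAMP. With CpGB, 14 and 29 were, 6 and 2 at the level of LPS+CpGB and 1 and 14 at that of cGAMP+CpGB. Over all genes, the shares called higher and lower with LPS than with cGAMP were 4.7% and 3.98% with HMW, 3.75% and 3.26% with SeV, 2.44% and 2.01% with Zymosan, 1.97% and 1.78% with PAM, and 0.847% and 1.38% with CpGB. The differences between these backgrounds were not tested.

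Among the other 20 pairs of the 7 ligands, the median number of genes above both members was 12.5, from 0 to 69, and 6 pairs had more than LPS+cGAMP. The number below both had a median of 0.5, from 0 to 10, with 3 pairs having more. Of the 26 genes above both with LPS+cGAMP, 15 were also above both members with PAM+cGAMP and 12 with cGAMP+CpGB. The overlap was 7 with LPS+CpGB, 6 with PAM+LPS, 6 with PAM+SeV, 4 with Zymosan+cGAMP and 3 with LPS+Zymosan. It was 1 each with PAM+HMW and PAM+Zymosan, and the remaining pairs shared none. Many of the 26 were thus not particular to LPS+cGAMP. Pairs that contain LPS or cGAMP share the single-ligand libraries used here.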

How the data were processed

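The deposited table holds whole-number UMI counts per gene symbol for 64 groups of 3 libraries, not normalized by the authors. Reads were aligned with BWA 0.7.15 to mm10, per the submitters' processing notes. The annotation and the rule for collapsing UMIs are not given in the sources used here. The analysis used edgeR 4.0.16 in R 4.3.3: filterByExpr kept 4720 of 23481 genes (95.7% of UMIs), TMM factors scaled the libraries, and 1 quasi-likelihood model with a coefficient per group was fitted. Genes above or below both ligands were tested on the larger of both p-values. The script was tested on simulated data. CPM use TMM-scaled totals. Replicates of a group differed by slightly more than counting noise (chi-square per degree of freedom 1.10 to 1.25), so none was merged. Promoters came from RefSeq tables, matched by symbol.

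Members, gene lists and naming rule were chosen with earlier results of these data known. The rule named the 12 largest excesses above both (at least 20 CPM in the pair), up to 8 deficits below both, 5 genes per level and direction (at least 50 CPM), up to 4 per list and 16 genes by name. Some genes that meet it are not reported here. Others complete a count and were chosen after their values were seen. Alternatives were RLE factors or library totals, no low-count filter, thinning, DESeq2 1.42.0, only the compared groups, no fold threshold, a replicate block and each replicate left out.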

Additional observations from a re-analysis of the deposited data

Results flagged for a closer look

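The number of genes whose effect in LPS+cGAMP departed from the sum of the log2 effects of LPS and of cGAMP was 555 at an edgeR adjusted p under 0.05. On the log2 scale, the effect of one ligand on these genes thus differed with and without the other. The departures of Cxcl1, Cxcl2, Ccl3 and Ifit1, which are among them, are given above.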

How the results depend on the processing

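Of the 184 differences for named genes, none that was called changed sign under an alternative run for it, and 30 that were not called did. The balance of all calls against cGAMP turned from 270 higher and 152 lower to 198 higher and 245 lower with library totals. Without a fold threshold, 226 genes were called against LPS, 49 above both, 68 at the cGAMP level and 42 above both with HMW. With library totals in place of TMM factors, 16 genes were above both, or 20 relative to the shifted centre. DESeq2 gave 16 above and 3 below both. Thinning to equal totals gave 1 below both, 29 at the cGAMP level and 11 above both with HMW, on 3494 genes. Leaving out in turn each library of the groups compared in a count gave 108 to 134 genes against LPS, 357 to 396 against cGAMP, 344 to 372 between LPS and cGAMP, 20 to 26 above both, 2 to 6 below both, 191 to 213 at the LPS level, 32 to 44 at the cGAMP level, 432 to 529 departures from the sum and 17 to 22 above both with HMW. The causes were not tested.

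Of the 32 genes above or below both, 10 were called under all 17 alternatives (Ccl2, Ccl3, Cxcl1, Cxcl2, G530011O06Rik, Htra4, Il6, Inhba, Intu and Ptgs2) and 22 were lost under at least 1. Calls against LPS that were lost without 1 of the compared libraries included those of Pcna, Slc37a3, Smpdl3b, Ticam2 and Tsc22d1, and against cGAMP those of Cxcl9 (-0.92, without pair replicate 2) and Rnf5 (adjusted p = 0.0912, without pair replicate 3). Same-numbered replicates of different groups did not deviate together (correlations of -0.032 to 0.0644, none over 0.1). With the replicate number as a block, the counts were 150 against LPS, 428 against cGAMP, 26 above and 6 below both, 228 at the LPS level and 45 at the cGAMP level. Depth limits genes near 0 in a group, such as Mycl1 and Ptpro.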
